A study of Sus scrofa with 9 samples.

Results

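Histone lysine methyltransferases and demethylases were followed through 3 stages of pig sperm formation. The members were all genes whose symbol starts with KMT, KDM, SETD, PRDM, NSD or SMYD and a number, or with SUV39H or SETDB, together with EZH1, EZH2, EHMT1, EHMT2, DOT1L, ASH1L, EED and SUZ12. The rule reads names and no measured values. In all 64 of the 22342 gene identifiers were members, and 62 of these 64 passed the filter on low counts. SMYD1 and PRDM13 did not pass it and were not tested. The symbols PRDM9, KMT2D, SETD1B, KDM2B, KDM4D, KDM4E, KDM4F and KDM5C were not matched to an identifier, so these genes are not analysed here under those names.

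Lysine methyltransferases add methyl groups to the tails and core of histones, most of them through a SET domain, and demethylases of the LSD and JmjC families take them off again. Methylation of H3K4 is known from active promoters and enhancers and that of H3K36 and H3K79 from transcribed gene bodies, while methylation of H3K9, H3K27 and H4K20 is known from silent chromatin and from chromosome structure. In mouse germ cells several of these enzymes are required for sperm formation, among them the H3K9 methyltransferases EHMT2, SUV39H1 and SUV39H2 in meiosis, and SETD2 and KDM3A after it.

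Total RNA was sequenced from cells of pig (Sus scrofa) testis in 9 libraries, 3 each labelled spermatogonia (mitotic germ cells, replicates 1, 2 and 3), spermatocytes (cells in meiosis, replicates 2, 3 and 4) and round spermatids (haploid cells after meiosis, replicates 1, 2 and 3). The labels give no breed, age, animal, genotype or treatment, and name no method by which the cell types were separated. The design text sets gene expression beside chromatin structure across these stages, and the comparisons ask which members differ between them. Libraries are called biological samples in the labels with no animal named, so the p-values reflect how far these libraries vary among themselves, and some of that variation may be technical. The 3 stages share 1 estimate of the spread per gene. The close spermatogonia libraries therefore also bear on the p-values for round spermatids against spermatocytes.

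Library totals ran from 47963279 to 64639201 estimated counts. Levels below are read counts per 1000000 of a library's TMM-corrected total (CPM), listed in the order of the replicate numbers. Levels of different genes are compared only per transcript length, in transcripts per 1000000 (TPM). Markers of the labelled cells were only partly where the labels put them. The 8 spermatocyte markers summed to 2699.7 to 3413 CPM in spermatocytes, and the 8 spermatid markers to 4874 to 7188 CPM in round spermatids, the highest sums of the 3 stages. The members of both lists were not alike. In spermatocytes 6 of the 8 spermatocyte markers were higher than in spermatogonia, while DMC1 (25.7 ± 10.4 against 39.1 ± 1.21 CPM, mean ± SD, n = 3 here and below) and SPO11 (2.62 ± 0.903 against 6.97 ± 0.0903 CPM) were lower. The spermatid sum was carried by PRM1, PRM2, TNP1 and TNP2, each higher in round spermatids than in spermatogonia. ACRV1 (52.7 ± 16.3 against 119 ± 2.74 CPM), SPACA1 (40.8 ± 1.76 against 81.8 ± 2.62 CPM) and SPACA4 (8.73 ± 2.82 against 101 ± 1.20 CPM) were lower there, and the 8 markers also stood at 1881 to 1923 CPM in spermatogonia. The 6 markers found for undifferentiated spermatogonia summed to 45.4 to 47.96 CPM in spermatogonia, 8.36 to 8.55 in spermatocytes and 87.8 to 148 in round spermatids. ID4 alone made most of the last, at 105 ± 36.3 CPM against 1.03 ± 0.0509 CPM in spermatogonia. Without this gene, chosen after its values were seen, the other 5 summed to 19.8 to 24.9 CPM in round spermatids. They summed to 6.33 to 6.96 CPM in spermatocytes and 44.5 to 46.9 CPM in spermatogonia. Of these 5, UCHL1 and RET were lower in round spermatids than in spermatogonia. GFRA1 (5.35 ± 0.567 against 0.860 ± 0.0984 CPM) and ITGA6 (7.03 ± 1.08 against 2.64 ± 0.121 CPM) were higher there, and ZBTB16 was not called. The 3 markers found for differentiating spermatogonia summed to 72.7 to 75.6 CPM in spermatogonia, 79.7 to 84.8 in spermatocytes and 49.0 to 53.3 in round spermatids. SOHLH2 made most of the sum in spermatogonia, at 62.5 ± 1.39 CPM, whereas KIT was 3.87-fold higher in round spermatids than in spermatogonia, at 24.6 ± 1.54 against 6.36 ± 0.165 CPM.

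Markers of somatic testis cells moved with the stages too. All 8 markers of peritubular myoid and smooth muscle cells were higher in round spermatids than in spermatocytes, with sums of 4895 to 6221 CPM in round spermatids, 10.8 to 26.1 in spermatocytes and 19.8 to 20.5 in spermatogonia. All 8 Sertoli cell markers were also higher there, with sums of 234 to 319 CPM in round spermatids, 31.6 to 49.5 in spermatocytes, where AMH was at 0 in each library, and 67.5 to 71.5 in spermatogonia. The same held for all 4 endothelial markers found, at 166 to 189.6 CPM in round spermatids against 4.58 to 16.8 in spermatocytes, and for the 5 tested of the 6 leukocyte markers found, which together summed to 22.1 to 27.2 CPM in round spermatids against 0.786 to 2.28 in spermatocytes. The 5 Leydig cell markers found were highest in spermatogonia, at 295 to 313 CPM, against 1.79 to 2.78 in spermatocytes and 15.8 to 20.02 in round spermatids. The part of these cells in any member's change was not tested, and in bulk RNA fewer cells of a type and less RNA per cell cannot be told apart. Each stage name stands for the libraries that carry that label.

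**Figure D1:**
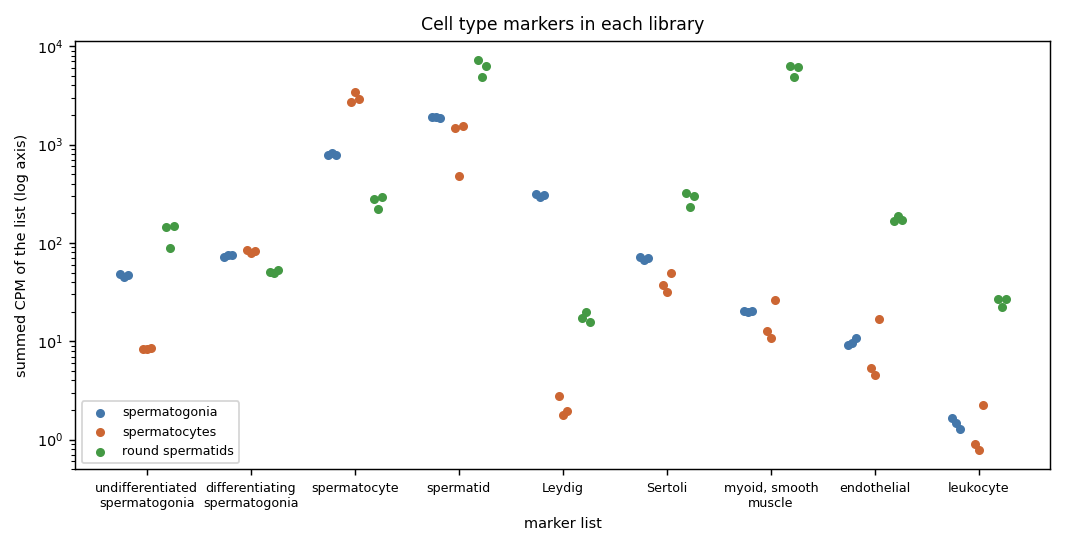
Summed CPM (log axis) of 9 lists of cell type markers, with 1 point per library and colours for the 3 stages. Myoid and smooth muscle markers sum to 4895 to 6221 CPM in the 3 round spermatid libraries and to at most 26.1 CPM in the other 6, and Leydig markers are highest in spermatogonia.

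Per transcript length the most abundant members changed with the stage. In spermatogonia DOT1L, the only H3K79 methyltransferase known in mammals, led with 311 ± 13.6 TPM, followed by EZH2 at 253 ± 2.96 TPM. SETD3 at 211 ± 4.87 and SETDB1 at 209 ± 5.45 TPM came next, and the ranges of this pair overlapped. In spermatocytes EZH2 led at 301 ± 36.3 TPM, ahead of KMT2E at 263 ± 52.2, KDM6B at 220.3 ± 53.0 and DOT1L at 217 ± 25.3 TPM, with overlapping ranges between neighbours in this order. In round spermatids KMT2E led at 195 ± 34.6 TPM, ahead of KDM6B at 102 ± 14.2, EZH2 at 102 ± 38.5, KMT5A at 86.8 ± 22.4 and DOT1L at 83.8 ± 28.3 TPM. Of these 5 in round spermatids, KMT2E alone stood apart from its neighbour. PRDM1 was next there, at 58.6 ± 19.98 TPM, against 0.427 ± 0.435 in spermatocytes and 0.752 ± 0.132 in spermatogonia, where it was among the 10 least abundant members.

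The TPM of the 64 members summed to 1160 to 1598 in round spermatids, below the sums in spermatocytes, 2361 to 3094 TPM, and in spermatogonia, 2469 to 2585 TPM. The sums of spermatocytes and spermatogonia overlapped in TPM. In CPM they did not, with 7600 to 9444 CPM in spermatocytes and 5290 to 5508 CPM in spermatogonia, against 3740 to 4700 CPM in round spermatids. CPM and TPM differ here by a scaling of each library, which lowered the members' log2 fold changes in TPM by a median of 0.52 for spermatocytes against spermatogonia and by 0.61 for round spermatids against spermatogonia.

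In spermatocytes more members were higher than lower against spermatogonia on the scale of TMM-corrected counts, but not with log2(TPM + 1), where 15 were higher and 21 lower, or with library totals alone, where 23 were higher and 24 lower. Of the 62 tested, 29 were higher in spermatocytes (46.8%, beside 29.3% of all 16802 tested genes) and 18 were lower (29.0%, beside 44.0% of all genes), by edgeR's quasi-likelihood test at a Benjamini-Hochberg adjusted p below 0.05. Their median log2 fold change was 0.25, against -0.32 for all tested genes, and 15 were not called (24.2%, beside 26.6%). A change of at least 2-fold was called for 15 higher members (24.2%, beside 17.3% of all genes) and 11 lower ones (17.7%, beside 30.9%). The sign of the members' median turned to -0.17 with library totals alone and to -0.25 with log2(TPM + 1), where the median of all genes was -0.74 and -0.41. Across the 20 alternative settings and the main one the members' median stood above that of all genes by 0.16 to 0.63. Calls at all settings held for 14 of the 29 higher members, ASH1L, KDM3A, KDM3B, KDM6B, KDM7A, KMT2A, KMT2E, KMT5A, NSD3, PRDM10, SETD2, SETD5, SETDB2 and SUZ12, and for 15 of the 18 lower ones, all but PRDM12, PRDM14 and PRDM15.

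From spermatocytes to round spermatids the balance turned. In round spermatids 36 members were lower than in spermatocytes (58.1%, beside 36.4% of all genes) and 17 were higher (27.4%, beside 42.7%). Their median log2 fold change was -0.76, against 0.19 for all genes, and it lay below that of all genes by 0.69 to 0.99 over the same settings. At least 2-fold lower were 28 members (45.2%, beside 24.7% of all genes) and at least 2-fold higher 12 (19.4%, beside 35.4%), and 9 were not called (14.5%, beside 20.8%). Calls held at all settings for 28 of the 36 lower and 14 of the 17 higher members. Against spermatogonia, 33 members were lower in round spermatids (53.2%, beside 39.7% of all genes) and 17 were higher (27.4%, beside 39.5%), with 28 and 10 held at all settings, and with log2(TPM + 1) 40 were lower and 11 higher. At least 2-fold lower were 22 (35.5%, beside 26.7% of all genes) and at least 2-fold higher 13 (21.0%, beside 30.9%), and 12 were not called (19.4%, beside 20.8%). The median log2 fold change was -0.45, against 0.0029 for all genes. These comparisons share libraries with each other and are not independent.

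Sorted by where a member was called against both other stages, 23 of 62 were highest in spermatocytes (37.1%, beside 19.5% of all genes), 12 were highest in spermatogonia (19.4%, beside 21.5%) and 10 were highest in round spermatids (16.1%, beside 30.1%). These counts are from the main fit, and some of the calls were lost at other settings. Among those highest in spermatocytes, both calls held at all settings only for ASH1L, KDM3A, KDM3B, PRDM10, SETD2, SETD5, SETDB2 and SUZ12. The 12 highest in spermatogonia were EHMT1, EHMT2, SUV39H1, NSD2, KDM8, SMYD2 to SMYD5, PRDM6, PRDM12 and PRDM14. Of these EHMT1, SUV39H1, SMYD2, PRDM12 and PRDM14 lost a call at some setting. The 10 highest in round spermatids were EED, KDM5D, KDM6A, KDM7A, KMT2C, KMT5A, PRDM1, PRDM8, PRDM15 and SETD7, and of these KDM5D, KDM7A, KMT2C and PRDM15 lost a call at some setting. The lowest level lay in round spermatids for 24 members (38.7%, beside 26.0% of all genes), in spermatogonia for 10 (16.1%, beside 13.2%) and in spermatocytes for 9 (14.5%, beside 26.2%).

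**Figure D2:**
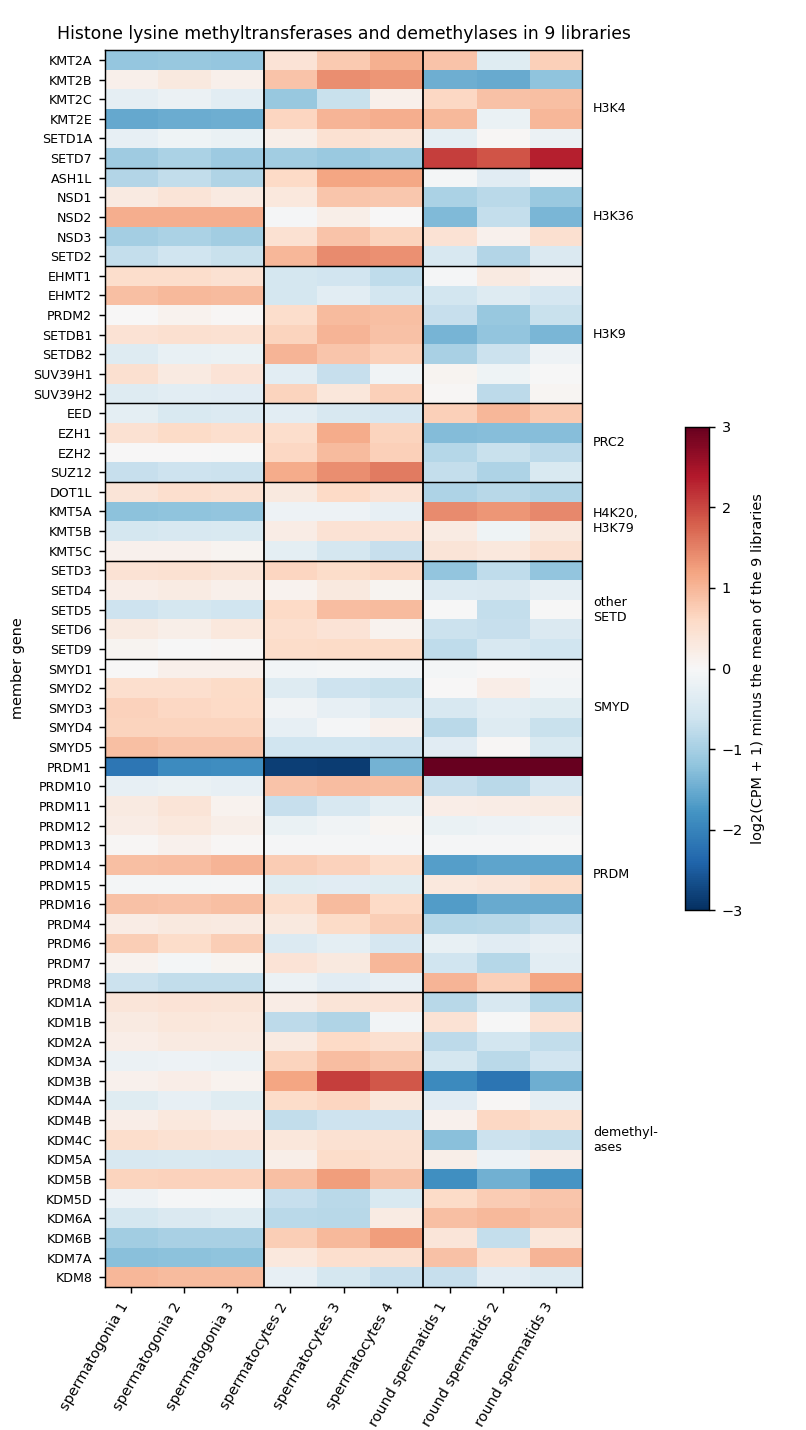
Level of 63 of the 64 members in the 9 libraries, as log2(CPM + 1) minus that member's mean over the libraries, grouped by role, with libraries in columns. Red rows in spermatocytes such as KDM3B, SETD2 and SUZ12 turn blue or pale in round spermatids, and PRDM1 and SETD7 are red in round spermatids alone.

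**Figure D3:**
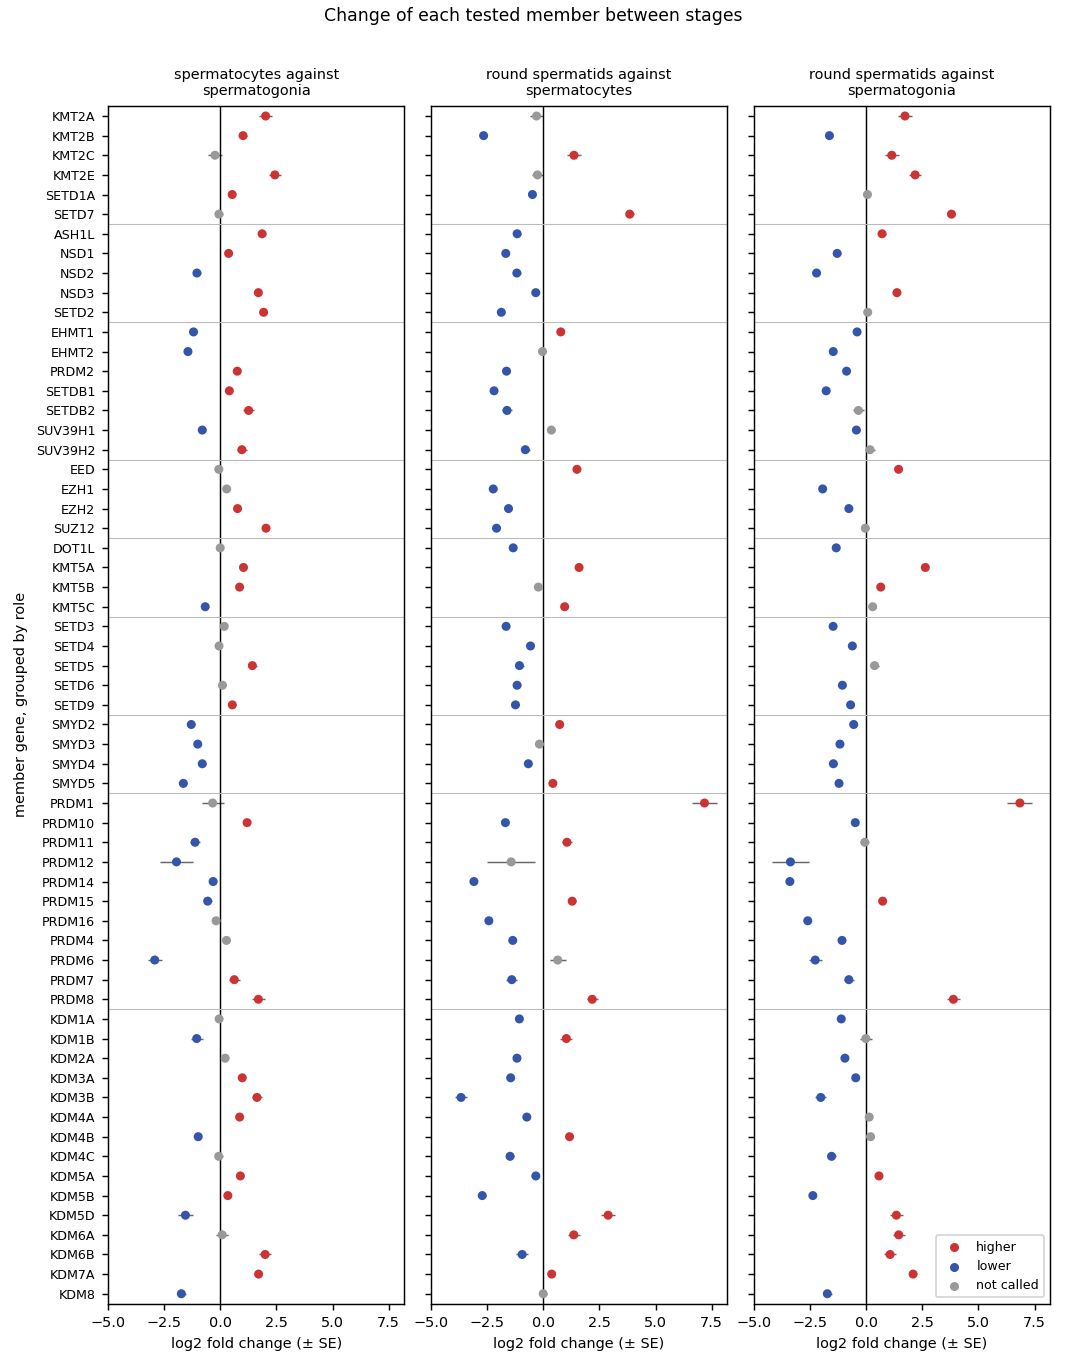
Log2 fold change with its SE for 61 of the 62 tested members in the 3 comparisons, in red where higher, in blue where lower and in grey where not called by edgeR. The left panel has 28 red and 18 blue points and the middle panel 17 red and 35 blue points, with PRDM1 farthest to the right in the middle and right panels.

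Of the H3K4 methyltransferases KMT2A, KMT2B, KMT2E and SETD1A were higher in spermatocytes than in spermatogonia among the 6 members of this role, beside 29.3% of all genes. In round spermatids 4 of the 6 were higher than in spermatogonia, beside 39.5% of all genes, with a median log2 fold change of 1.44. Over the settings 2 to 4 were higher in the first comparison and 3 to 4 in the second. KMT2E, a SET and PHD finger protein of the MLL family whose own catalytic activity is doubted, lies at chr9:104876301-105007161 (Sscrofa11.1 in this and all following positions). It had 137, 142 and 144 CPM in spermatogonia, 627, 811 and 849 CPM in spermatocytes and 782, 346 and 795 CPM in round spermatids. Every spermatocyte and round spermatid library stood above every spermatogonia library, and round spermatids 2 lay far below the other round spermatid libraries. KMT2E was 5.41-fold higher in spermatocytes than in spermatogonia (log2 fold change 2.43 ± 0.28 SE, edgeR adjusted p = 2.65e-05) and 4.54-fold higher in round spermatids than in spermatogonia (log2 fold change 2.18 ± 0.28 SE, edgeR adjusted p = 3.35e-05).

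KMT2A (chr9:45743566-45828559), the MLL1 enzyme that keeps HOX genes active in other tissues, had 10.2, 10.4 and 10.2 CPM in spermatogonia, 32.3, 41.8 and 51.4 CPM in spermatocytes and 44.2, 18.4 and 39.9 CPM in round spermatids. As for KMT2E, spermatogonia were lowest without overlap, and round spermatids 2 was again low within its stage. KMT2A was 4.06-fold higher in spermatocytes than in spermatogonia (log2 fold change 2.02 ± 0.29 SE, edgeR adjusted p = 0.000132) and 3.32-fold higher in round spermatids than in spermatogonia (log2 fold change 1.73 ± 0.29 SE, edgeR adjusted p = 0.000277), while round spermatids and spermatocytes overlapped and the test did not call them (log2 fold change -0.29 ± 0.28 SE, edgeR adjusted p = 0.359).

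KMT2B (chr6:45146863-45166854), the paralog of KMT2A that sets H3K4 methylation at CpG-rich promoters, took another course. It had 75.8, 84.1 and 75.5 CPM in spermatogonia, 123, 181 and 173 CPM in spermatocytes and 24.0, 23.1 and 28.9 CPM in round spermatids. The 3 stages did not overlap, with spermatocytes highest and round spermatids lowest. KMT2B was 6.27-fold lower in round spermatids than in spermatocytes (log2 fold change -2.65 ± 0.16 SE, edgeR adjusted p = 1.32e-07) and 2.02-fold higher in spermatocytes than in spermatogonia (log2 fold change 1.02 ± 0.16 SE, edgeR adjusted p = 0.000189), the second call being lost with log2(TPM + 1) at 0.46.

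KMT2C, the catalytic subunit of a complex that methylates H3K4 at enhancers, had 8.62, 9.24 and 8.21 CPM in spermatogonia, 4.19, 6.199 and 11.8 CPM in spermatocytes and 16.7, 20.3 and 20.7 CPM in round spermatids. Round spermatids stood above all other libraries, and spermatocytes 4 stood above all spermatogonia libraries while spermatocytes 2 and 3 stood below them. It was 2.59-fold higher in round spermatids than in spermatocytes (log2 fold change 1.37 ± 0.30 SE, edgeR adjusted p = 0.00172). Spermatocytes against spermatogonia were not called (log2 fold change -0.23 ± 0.30 SE, edgeR adjusted p = 0.507), but without spermatocytes 4 KMT2C was lower in spermatocytes, with a log2 fold change of -0.74. That library also had the highest sum of myoid markers of its stage, 26.1 CPM against 12.6 and 10.8 in spermatocytes 2 and 3. The same held for Sertoli (49.5 against 37.6 and 31.6), endothelial (16.8 against 5.29 and 4.58) and leukocyte markers (2.28 against 0.902 and 0.786), but not for Leydig cell markers. The part of these cells in the difference was not tested.

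SETD7 (chr8:87478266-87527190), which methylates H3K4 and several other proteins, had 1.46, 1.68 and 1.42 CPM in spermatogonia, 1.51, 1.38 and 1.51 CPM in spermatocytes and 20.8, 17.97 and 24.9 CPM in round spermatids. All 3 round spermatid libraries stood far above the other 6, and spermatocytes and spermatogonia overlapped. It was 14.4-fold higher in round spermatids than in spermatocytes (log2 fold change 3.85 ± 0.17 SE, edgeR adjusted p = 1.54e-08) and 13.9-fold higher than in spermatogonia (log2 fold change 3.80 ± 0.17 SE, edgeR adjusted p = 2.58e-08), and these calls held at all settings. SETD1A, the catalytic subunit of a general H3K4 methyltransferase complex, had 105, 113 and 108 CPM in spermatogonia, 139.8, 170.4 and 163 CPM in spermatocytes and 102, 128 and 111 CPM in round spermatids. It changed little, by 1.45-fold upwards in spermatocytes against spermatogonia (log2 fold change 0.54 ± 0.12 SE, edgeR adjusted p = 0.00216) and 1.39-fold downwards in round spermatids against spermatocytes (log2 fold change -0.47 ± 0.12 SE, edgeR adjusted p = 0.00378), and both calls were lost with library totals alone, the first at 0.11.

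The 5 H3K36 methyltransferases were all lower in round spermatids than in spermatocytes (beside 36.4% of all genes), with the sign of NSD3 turning with library totals alone. All but NSD2 were higher in spermatocytes than in spermatogonia (beside 29.3% of all genes), with the sign of NSD1 turning in the same way. Over the settings 4 to 5 were lower in the first comparison and 3 to 4 higher in the second. Their median log2 fold changes were -1.17 in round spermatids against spermatocytes and 1.70 in spermatocytes against spermatogonia. SETD2 (chr13:29884708-29996285), which trimethylates H3K36 behind RNA polymerase II, had 153, 166 and 159 CPM in spermatogonia, 502, 674 and 648 CPM in spermatocytes and 179.5, 136 and 186 CPM in round spermatids. The spermatocyte libraries stood above all others, and round spermatids overlapped with spermatogonia. SETD2 was 3.82-fold higher in spermatocytes than in spermatogonia (log2 fold change 1.93 ± 0.15 SE, edgeR adjusted p = 2.70e-06) and 3.63-fold lower in round spermatids than in spermatocytes (log2 fold change -1.86 ± 0.15 SE, edgeR adjusted p = 1.05e-06). Between round spermatids and spermatogonia the log2 fold change was 0.073 and not called, but with log2(TPM + 1) it was -0.54 and called, so its sign depends on the scaling.

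NSD2 (chr8:938832-1018032), which dimethylates H3K36 in broad domains, fell at each step. It had 501, 503 and 503 CPM in spermatogonia, 232, 267 and 237 CPM in spermatocytes and 93.5, 143 and 90.8 CPM in round spermatids. The stages did not overlap, and the 3 spermatogonia libraries lay close together. NSD2 was 2.05-fold lower in spermatocytes than in spermatogonia (log2 fold change -1.03 ± 0.17 SE, edgeR adjusted p = 0.000258), 2.25-fold lower in round spermatids than in spermatocytes (log2 fold change -1.17 ± 0.17 SE, edgeR adjusted p = 7.45e-05) and 4.61-fold lower in round spermatids than in spermatogonia (log2 fold change -2.20 ± 0.17 SE, edgeR adjusted p = 9.13e-07).

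NSD1, its paralog, had 56.5, 61.2 and 56.2 CPM in spermatogonia, 58.8, 83.8 and 83.1 CPM in spermatocytes and 23.8, 26.5 and 21.1 CPM in round spermatids. Round spermatids were lowest, and spermatocytes 2 lay among the spermatogonia libraries. It was 3.16-fold lower in round spermatids than in spermatocytes (log2 fold change -1.66 ± 0.15 SE, edgeR adjusted p = 2.59e-06). Its small rise in spermatocytes against spermatogonia (log2 fold change 0.38 ± 0.15 SE, edgeR adjusted p = 0.0425) turned to -0.046 with library totals alone and -0.16 with log2(TPM + 1). The rise also lost its call without any 1 of spermatogonia 1, 2 or 3, spermatocytes 3 or 4, or round spermatids 1, at 0.29 to 0.41.

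ASH1L (chr4:94297532-94484994), an H3K36 methyltransferase that opposes Polycomb silencing, had 39.8, 43.6 and 39.3 CPM in spermatogonia, 112, 169 and 167 CPM in spermatocytes and 70.4, 58.0 and 72.4 CPM in round spermatids. Its stages did not overlap, with spermatogonia lowest and spermatocytes highest. ASH1L was 3.65-fold higher in spermatocytes than in spermatogonia (log2 fold change 1.87 ± 0.17 SE, edgeR adjusted p = 5.42e-06) and 2.23-fold lower in round spermatids than in spermatocytes (log2 fold change -1.16 ± 0.16 SE, edgeR adjusted p = 7.25e-05). NSD3, the third NSD enzyme, averaged 33.4 ± 1.004 CPM in spermatogonia, 108 ± 14.96 in spermatocytes and 86.5 ± 10.9 in round spermatids. It was 3.25-fold higher in spermatocytes than in spermatogonia (log2 fold change 1.70 ± 0.14 SE, edgeR adjusted p = 2.72e-06) and 2.59-fold higher in round spermatids than in spermatogonia (log2 fold change 1.37 ± 0.13 SE, edgeR adjusted p = 4.68e-06). The small fall between spermatocytes and round spermatids (log2 fold change -0.33) turned to 0.13 with library totals alone, and lost its call without any 1 of 7 of the 9 libraries, all but spermatocytes 2 and round spermatids 3, at -0.37 to -0.23.

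Among 7 H3K9 methyltransferases the euchromatic pair and SUV39H1 were lower in spermatocytes than in spermatogonia (beside 44.0% of all genes). The other 4 were higher (beside 29.3% of all genes, and 1 to 4 over the settings), with the sign of SETDB1 turning with library totals alone. In round spermatids 5 of the 7 were lower than in spermatogonia (beside 39.7% of all genes), with a median log2 fold change of -0.43, and 3 to 7 were lower over the settings. EHMT2 (chr7:23977683-23992673), the G9a enzyme that dimethylates H3K9 in euchromatin, had 97.4, 103 and 101 CPM in spermatogonia, 35.3, 41.1 and 35.1 CPM in spermatocytes and 34.8, 38.8 and 35.7 CPM in round spermatids. Spermatogonia stood above all other libraries, and spermatocytes overlapped with round spermatids. It was 2.70-fold lower in spermatocytes than in spermatogonia (log2 fold change -1.43 ± 0.11 SE, edgeR adjusted p = 1.82e-06) and 2.75-fold lower in round spermatids than in spermatogonia (log2 fold change -1.46 ± 0.11 SE, edgeR adjusted p = 5.40e-07). Round spermatids against spermatocytes gave -0.028 on the log2 scale and no call, but 0.44 and a call with library totals alone.

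EHMT1, the partner of EHMT2 in 1 complex, lies on an unplaced scaffold and had 29.4, 29.6 and 28.2 CPM in spermatogonia, 13.8, 13.2 and 11.4 CPM in spermatocytes and 19.6, 24.5 and 22.0 CPM in round spermatids. The stages did not overlap, with spermatocytes lowest. EHMT1 was 2.28-fold lower in spermatocytes than in spermatogonia (log2 fold change -1.19 ± 0.13 SE, edgeR adjusted p = 1.55e-05) and 1.72-fold higher in round spermatids than in spermatocytes (log2 fold change 0.79 ± 0.13 SE, edgeR adjusted p = 0.000172). Its fall in round spermatids against spermatogonia (log2 fold change -0.40 ± 0.12 SE, edgeR adjusted p = 0.0122) lost its call without round spermatids 1, at -0.32.

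The SUV39H pair, which trimethylates H3K9 in pericentric heterochromatin, differed in direction in spermatocytes. SUV39H1, on the X chromosome (chrX:42797309-42811457), had 15.3, 13.1 and 14.5 CPM in spermatogonia, 8.47, 6.29 and 9.95 CPM in spermatocytes and 11.5, 9.68 and 10.7 CPM in round spermatids, and SUV39H2 (chr10:46874606-46900058) had 15.6, 16.3 and 16.2 CPM in spermatogonia, 33.1, 26.5 and 34.3 CPM in spermatocytes and 21.3, 11.6 and 21.4 CPM in round spermatids. Spermatocytes were lowest for SUV39H1, with overlap to round spermatids, and highest for SUV39H2 without overlap. SUV39H1 was 1.74-fold lower in spermatocytes than in spermatogonia (log2 fold change -0.80 ± 0.17 SE, edgeR adjusted p = 0.00165), while SUV39H2 was 1.95-fold higher (log2 fold change 0.97 ± 0.21 SE, edgeR adjusted p = 0.00214). In round spermatids SUV39H2 was 1.73-fold lower than in spermatocytes (log2 fold change -0.79 ± 0.21 SE, edgeR adjusted p = 0.00595). Its difference to spermatogonia, 0.18 on the log2 scale and not called, turned to -0.47 and a call with log2(TPM + 1), and to 0.41 and a call without round spermatids 2. SUV39H1 was lower in round spermatids than in spermatogonia (log2 fold change -0.43 ± 0.17 SE, edgeR adjusted p = 0.0362), a call lost without any 1 of spermatogonia 1 or 3 or round spermatids 2 or 3, at -0.45 to -0.37. Against spermatocytes it was not called in round spermatids (log2 fold change 0.37 ± 0.17 SE, edgeR adjusted p = 0.0695), but it was called higher without spermatocytes 4, at 0.52, and with library totals alone, at 0.81.

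SETDB1 (chr4:98259801-98293238), which silences retroelements and binds zinc finger proteins through TRIM28, had 419, 436 and 425 CPM in spermatogonia, 494, 634 and 569.7 CPM in spermatocytes and 118, 136 and 119 CPM in round spermatids. Round spermatids stood below all other libraries. SETDB1 was 4.54-fold lower in round spermatids than in spermatocytes (log2 fold change -2.18 ± 0.12 SE, edgeR adjusted p = 5.85e-08) and 3.42-fold lower than in spermatogonia (log2 fold change -1.78 ± 0.12 SE, edgeR adjusted p = 3.16e-07). The rise in spermatocytes against spermatogonia (log2 fold change 0.41 ± 0.12 SE, edgeR adjusted p = 0.00856) turned to -0.016 with library totals alone and -0.12 with log2(TPM + 1). SETDB2, a related enzyme, averaged 5.23 ± 0.460 CPM in spermatogonia, 12.6 ± 1.38 in spermatocytes and 4.13 ± 1.51 in round spermatids, and PRDM2, a PR domain protein with H3K9 activity, averaged 175 ± 6.12 CPM in spermatogonia, 297 ± 43.5 in spermatocytes and 96.0 ± 16.9 in round spermatids. Both were highest in spermatocytes. SETDB2 was 2.41-fold and PRDM2 1.69-fold higher there than in spermatogonia (edgeR adjusted p = 0.000619 and 0.00108), the call of PRDM2 being lost with log2(TPM + 1) at 0.22.

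The subunits of Polycomb repressive complex 2, which methylates H3K27, did not move together: 3 of 4 were lower and 1 was higher in round spermatids than in spermatocytes, beside 36.4% and 42.7% of all genes. SUZ12 (chr12:42983597-43032671), the scaffold of the complex, had 40.0, 41.4 and 41.1 CPM in spermatogonia, 142, 170.5 and 192 CPM in spermatocytes and 39.2, 33.4 and 47.0 CPM in round spermatids. All spermatocyte libraries stood above the rest, and round spermatids overlapped with spermatogonia. SUZ12 was 4.11-fold higher in spermatocytes than in spermatogonia (log2 fold change 2.04 ± 0.15 SE, edgeR adjusted p = 2.00e-06) and 4.21-fold lower in round spermatids than in spermatocytes (log2 fold change -2.07 ± 0.15 SE, edgeR adjusted p = 4.55e-07).

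EZH2 (chr9:109384976-109450943), the main catalytic subunit, had 259, 261 and 256 CPM in spermatogonia, 399, 500.1 and 427 CPM in spermatocytes and 142, 163 and 151 CPM in round spermatids. Its stages did not overlap, with spermatocytes highest and round spermatids lowest. EZH2 was 2.91-fold lower in round spermatids than in spermatocytes (log2 fold change -1.54 ± 0.11 SE, edgeR adjusted p = 4.39e-07) and 1.70-fold lower than in spermatogonia (log2 fold change -0.77 ± 0.11 SE, edgeR adjusted p = 9.13e-05). It was 1.71-fold higher in spermatocytes than in spermatogonia (log2 fold change 0.77 ± 0.11 SE, edgeR adjusted p = 0.00012), a call lost with log2(TPM + 1) at 0.24. EZH1 (chr12:20107744-20139764), the alternative catalytic subunit, had 28.4, 30.8 and 29.4 CPM in spermatogonia, 29.9, 45.2 and 33.2 CPM in spermatocytes and 7.70, 7.76 and 7.79 CPM in round spermatids. Round spermatids lay below the other 6 libraries. EZH1 was 4.66-fold lower in round spermatids than in spermatocytes (log2 fold change -2.22 ± 0.16 SE, edgeR adjusted p = 3.30e-07) and 3.81-fold lower than in spermatogonia (log2 fold change -1.93 ± 0.16 SE, edgeR adjusted p = 1.14e-06). Spermatocytes against spermatogonia were not called (log2 fold change 0.29 ± 0.15 SE, edgeR adjusted p = 0.103), but EZH1 was called higher there without spermatocytes 2, at 0.41, and with DESeq2, at 0.48.

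EED (chr9:20123077-20158747), the subunit that binds methylated H3K27, went the other way at a low level. It had 3.85, 3.30 and 3.43 CPM in spermatogonia, 3.76, 3.23 and 3.16 CPM in spermatocytes and 8.80, 10.8 and 9.26 CPM in round spermatids. Round spermatids were highest, and the other stages overlapped. EED was 2.84-fold higher in round spermatids than in spermatocytes (log2 fold change 1.51 ± 0.15 SE, edgeR adjusted p = 4.46e-06) and 2.72-fold higher than in spermatogonia (log2 fold change 1.45 ± 0.15 SE, edgeR adjusted p = 6.52e-06). In round spermatids EED stood at 7.98 ± 3.36 TPM, beside 102 ± 38.5 TPM for EZH2 and 24.5 ± 3.97 TPM for SUZ12.

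**Figure D4:**
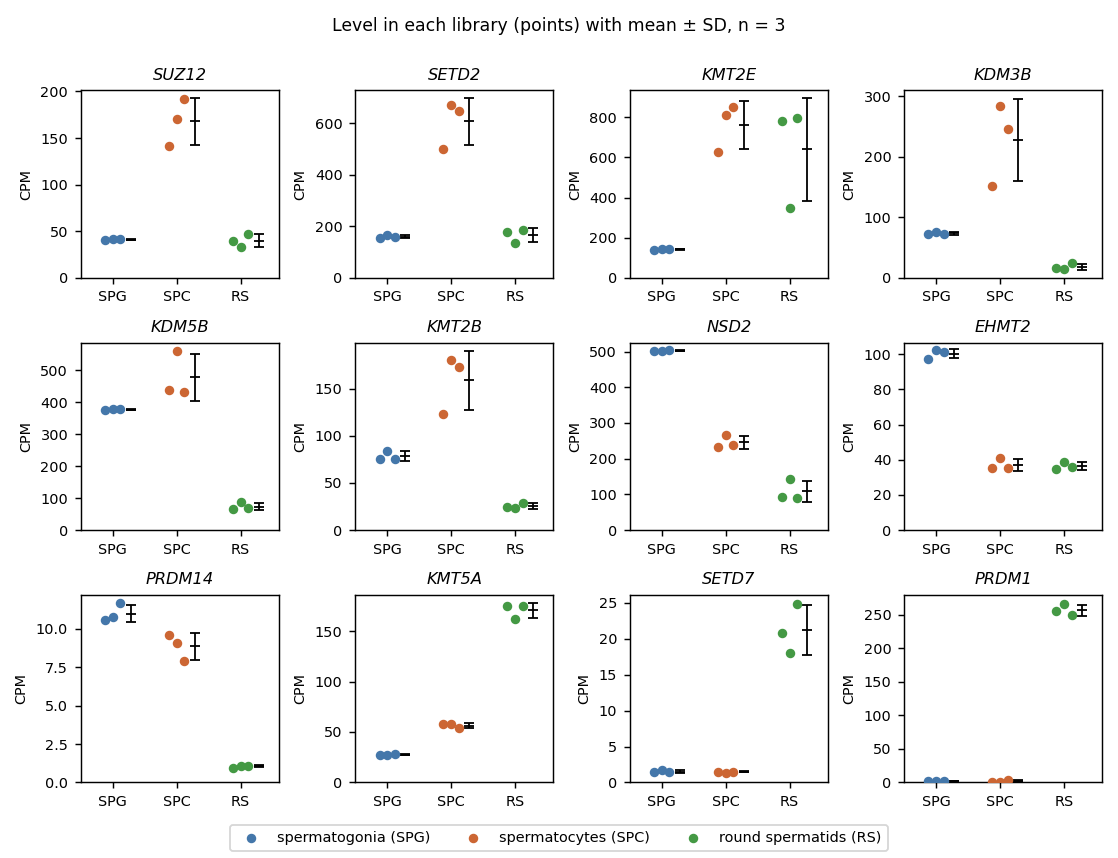
CPM of 12 members in each library (points), with the mean and SD of the 3 libraries of a stage beside them. SUZ12, SETD2 and KDM3B peak in spermatocytes, NSD2 and EHMT2 in spermatogonia, and KMT5A, SETD7 and PRDM1 in round spermatids, while round spermatids 2 lies apart for KMT2E.

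The 3 H4K20 methyltransferases took different courses. KMT5A (chr14:29523102-29543522), which sets the first methyl group, had 27.0, 27.5 and 27.8 CPM in spermatogonia, 57.8, 57.5 and 53.7 CPM in spermatocytes and 175, 162 and 175 CPM in round spermatids. Its stages did not overlap and followed the order of development. KMT5A was 2.05-fold higher in spermatocytes than in spermatogonia (log2 fold change 1.04 ± 0.09 SE, edgeR adjusted p = 4.97e-06), 3.03-fold higher in round spermatids than in spermatocytes (log2 fold change 1.60 ± 0.09 SE, edgeR adjusted p = 8.17e-08) and 6.22-fold higher in round spermatids than in spermatogonia (log2 fold change 2.64 ± 0.10 SE, edgeR adjusted p = 1.09e-08), and each call held at all settings.

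KMT5B and KMT5C, which add the further methyl groups, changed less and apart. KMT5B had 35.4, 36.8 and 37.5 CPM in spermatogonia, 60.9, 70.2 and 68.7 CPM in spermatocytes and 61.1, 47.5 and 63.8 CPM in round spermatids, and KMT5C had 13.5, 13.3 and 13.0 CPM in spermatogonia, 9.74, 8.19 and 7.14 CPM in spermatocytes and 16.1, 15.3 and 17.3 CPM in round spermatids. Spermatogonia were lowest for KMT5B and spermatocytes lowest for KMT5C, each without overlap. KMT5B was 1.82-fold higher in spermatocytes than in spermatogonia (log2 fold change 0.86 ± 0.13 SE, edgeR adjusted p = 0.000147), a call lost with log2(TPM + 1) at 0.32. KMT5C was 1.59-fold lower in spermatocytes than in spermatogonia (log2 fold change -0.66 ± 0.13 SE, edgeR adjusted p = 0.00119) and 1.94-fold higher in round spermatids than in spermatocytes (log2 fold change 0.96 ± 0.14 SE, edgeR adjusted p = 6.88e-05).

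DOT1L (chr2:76339452-76401974), which methylates H3K79 without a SET domain, had 953, 1026 and 992 CPM in spermatogonia, 894, 1096 and 987 CPM in spermatocytes and 386, 407 and 390.5 CPM in round spermatids. Round spermatids stood below all other libraries, and spermatocytes overlapped with spermatogonia. DOT1L was 2.52-fold lower in round spermatids than in spermatocytes (log2 fold change -1.33 ± 0.11 SE, edgeR adjusted p = 8.56e-07) and 2.51-fold lower than in spermatogonia (log2 fold change -1.33 ± 0.11 SE, edgeR adjusted p = 1.14e-06). Spermatocytes against spermatogonia were not called (log2 fold change 0.0023 ± 0.10 SE, edgeR adjusted p = 0.986), but DOT1L was called lower there with library totals alone, at -0.42, and with log2(TPM + 1), at -0.52. In TPM the level of DOT1L in round spermatids was 67.9, 117 and 67.0, highest in round spermatids 2, where CPM was nearly level over the 3 libraries.

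All 4 tested SMYD proteins, SET and MYND domain enzymes with histone and other substrates, were lower in spermatocytes than in spermatogonia (beside 44.0% of all genes). All 4 were also lower in round spermatids than in spermatogonia (beside 39.7% of all genes). Over the settings, some of which also test SMYD1, 4 to 5 were lower in the first comparison and 3 to 5 in the second. SMYD5 had 15.99, 15.1 and 14.97 CPM in spermatogonia, 4.98, 4.93 and 4.90 CPM in spermatocytes and 6.14, 8.24 and 5.63 CPM in round spermatids, and SMYD2 had 8.08, 8.10 and 8.49 CPM in spermatogonia, 3.94, 3.14 and 3.02 CPM in spermatocytes and 5.43, 6.39 and 5.02 CPM in round spermatids. Spermatogonia stood above the other 6 libraries for both. In spermatocytes SMYD5 was 3.11-fold lower than in spermatogonia (log2 fold change -1.64 ± 0.16 SE, edgeR adjusted p = 7.86e-06) and SMYD2 2.44-fold lower (log2 fold change -1.29 ± 0.16 SE, edgeR adjusted p = 3.92e-05). SMYD5 was 1.35-fold higher in round spermatids than in spermatocytes, but this call was lost without spermatocytes 2, at 0.43, and without round spermatids 2, at 0.25. SMYD3 averaged 11.6 ± 0.496 CPM in spermatogonia, 5.81 ± 0.738 in spermatocytes and 5.18 ± 0.388 in round spermatids, and SMYD4 averaged 13.0 ± 0.0391 CPM in spermatogonia, 7.50 ± 1.08 in spermatocytes and 4.75 ± 0.914 in round spermatids. SMYD3 was 1.996-fold and SMYD4 1.74-fold lower in spermatocytes than in spermatogonia (edgeR adjusted p = 9.23e-05 and 0.00136). SMYD1, the muscle member of the family in mouse, had 0.0710, 0.184 and 0.172 CPM in spermatogonia, 0, 0.0218 and 0 CPM in spermatocytes and 0.0169, 0.0662 and 0.0338 CPM in round spermatids, too little to test.

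The 5 other SETD proteins were all lower in round spermatids than in spermatocytes, beside 36.4% of all genes, and 4 to 5 were lower over the settings. SETD3, a histidine methyltransferase of actin, averaged 298 ± 6.89 CPM in spermatogonia, 338 ± 10.9 in spermatocytes and 108 ± 19.2 in round spermatids. It was 3.13-fold lower in round spermatids than in spermatocytes (log2 fold change -1.65 ± 0.13 SE, edgeR adjusted p = 6.77e-07). SETD5, related to KMT2E, averaged 74.6 ± 3.06 CPM in spermatogonia, 201 ± 26.4 in spermatocytes and 96.9 ± 25.5 in round spermatids and was 2.70-fold higher in spermatocytes than in spermatogonia (log2 fold change 1.43 ± 0.19 SE, edgeR adjusted p = 6.74e-05). SETD9 averaged 22.8 ± 0.804 CPM in spermatogonia, 33.1 ± 0.289 in spermatocytes and 14.1 ± 1.41 in round spermatids, SETD4 averaged 19.6 ± 0.678 CPM in spermatogonia, 18.9 ± 1.60 in spermatocytes and 12.8 ± 0.835 in round spermatids, and SETD6, a methyltransferase of the NF-kappaB subunit RELA, averaged 5.53 ± 0.307 CPM in spermatogonia, 5.94 ± 0.972 in spermatocytes and 2.66 ± 0.366 in round spermatids. Their falls in round spermatids against spermatocytes were 2.34-fold, 1.47-fold and 2.23-fold (edgeR adjusted p = 2.13e-06, 0.000974 and 0.000104), that of SETD4 being lost with library totals alone at -0.10.

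PRDM proteins carry a PR domain akin to SET beside zinc fingers, and many act as transcription factors. PRDM1 (chr1:72309096-72335474), a repressor that specifies primordial germ cells in mouse, showed the largest change of any member. It had 1.80, 2.41 and 2.49 CPM in spermatogonia, 0.784, 0.764 and 3.71 CPM in spermatocytes and 255, 266 and 249 CPM in round spermatids. The 3 round spermatid libraries stood close together and far above the other 6, and spermatocytes 4 stood above spermatocytes 2 and 3. PRDM1 was 145-fold higher in round spermatids than in spermatocytes (log2 fold change 7.18 ± 0.57 SE, edgeR adjusted p = 7.54e-07) and 115-fold higher than in spermatogonia (log2 fold change 6.84 ± 0.55 SE, edgeR adjusted p = 1.17e-06). Without spermatocytes 4 the first log2 fold change was 8.36, and PRDM1 was then called lower in spermatocytes than in spermatogonia, at -1.52 in place of -0.33. Myoid markers were highest in the same libraries and summed to 4895 to 6221 CPM in round spermatids, 26.1 CPM in spermatocytes 4 and 12.6 and 10.8 CPM in spermatocytes 2 and 3. Sertoli, endothelial and leukocyte markers were also highest in round spermatids and, within the spermatocytes, in spermatocytes 4, while Leydig cell markers were not. Round spermatids 2, highest in PRDM1, had the lowest myoid, Sertoli and leukocyte sums of its stage and the highest endothelial sum. The part of these cells in the level of PRDM1 was not tested.

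PRDM14 (chr4:65273988-65295362), which guards pluripotency and germ cell fate in mouse, had 10.6, 10.8 and 11.7 CPM in spermatogonia, 9.58, 9.08 and 7.90 CPM in spermatocytes and 0.9647, 1.09 and 1.08 CPM in round spermatids. The stages did not overlap, and round spermatids were far below the rest. PRDM14 was 8.45-fold lower in round spermatids than in spermatocytes (log2 fold change -3.08 ± 0.15 SE, edgeR adjusted p = 2.51e-08) and 10.49-fold lower than in spermatogonia (log2 fold change -3.39 ± 0.15 SE, edgeR adjusted p = 2.43e-08). Its slight fall in spermatocytes against spermatogonia (log2 fold change -0.31) lost its call at 14 of the 20 alternative settings, among them without any 1 of 7 of the 9 libraries, all but spermatocytes 2 and round spermatids 2, at -0.34 to -0.23. PRDM16 (chr6:64704181-65012580), known from brown fat and blood stem cells in mouse, had 44.0, 43.8 and 45.0 CPM in spermatogonia, 34.3, 46.5 and 36.3 CPM in spermatocytes and 6.65, 7.64 and 7.67 CPM in round spermatids. Round spermatids were again lowest without overlap. It was 5.33-fold lower in round spermatids than in spermatocytes (log2 fold change -2.41 ± 0.14 SE, edgeR adjusted p = 8.30e-08) and 6.04-fold lower than in spermatogonia (log2 fold change -2.60 ± 0.14 SE, edgeR adjusted p = 8.99e-08).

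PRDM4, PRDM7 and PRDM10 were lower in round spermatids than in spermatocytes, by 2.55-fold, 2.63-fold and 3.20-fold. PRDM4 averaged 145 ± 3.60 CPM in spermatogonia, 176 ± 27.8 in spermatocytes and 69.2 ± 4.63 in round spermatids, and PRDM10 averaged 11.03 ± 0.283 CPM in spermatogonia, 25.3 ± 0.846 in spermatocytes and 7.90 ± 0.909 in round spermatids. The identifier with the symbol PRDM7, which in human names the close paralog of the meiotic hotspot enzyme PRDM9, lies at chr6:64464-78212. It averaged 5.78 ± 0.432 CPM in spermatogonia, 8.92 ± 2.71 in spermatocytes and 3.40 ± 0.825 in round spermatids. The counting may have split reads between near-identical copies, and whether this identifier stands for PRDM9 in pig was not tested. The rise of PRDM7 in spermatocytes against spermatogonia (log2 fold change 0.63 ± 0.23 SE, edgeR adjusted p = 0.0316) lost its call without spermatocytes 4, at 0.35, and without any 1 of the 3 spermatogonia libraries, at 0.57 to 0.67.

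Several other PRDM genes were low. PRDM8, PRDM11 and PRDM15 were higher in round spermatids than in spermatocytes, by 4.54-fold, 2.09-fold and 2.45-fold (edgeR adjusted p = 1.33e-05, 0.000752 and 5.84e-05). PRDM8 averaged 0.190 ± 0.0454 CPM in spermatogonia, 0.620 ± 0.0914 in spermatocytes and 2.83 ± 0.620 in round spermatids. PRDM11 averaged 2.88 ± 0.377 CPM in spermatogonia, 1.33 ± 0.323 in spermatocytes and 2.77 ± 0.0409 in round spermatids, and PRDM15 averaged 1.36 ± 0.0273 CPM in spermatogonia, 0.926 ± 0.0109 in spermatocytes and 2.27 ± 0.289 in round spermatids. PRDM6 and PRDM12 were highest in spermatogonia: PRDM6 averaged 1.54 ± 0.168 CPM in spermatogonia, 0.205 ± 0.0957 in spermatocytes and 0.319 ± 0.0481 in round spermatids, and PRDM12 averaged 0.365 ± 0.0691 CPM in spermatogonia, 0.0920 ± 0.108 in spermatocytes and 0.0336 ± 0.0338 in round spermatids. PRDM6, a repressor of smooth muscle genes in mouse, was 7.52-fold lower in spermatocytes than in spermatogonia (edgeR adjusted p = 1.88e-05). PRDM12 had a log2 fold change of -1.94 there, and -3.47 without spermatocytes 4. Its call was lost without any 1 of spermatogonia 1, 2 or 3 or spermatocytes 2 or 3, at -2.07 to -1.36, and the call of PRDM15 without spermatogonia 3, at -0.54. PRDM13 had at most 0.127 CPM in any library.

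Of the 15 demethylases 7 were higher and 4 lower in spermatocytes than in spermatogonia, beside 29.3% higher and 44.0% lower of all genes, and over the settings 4 to 8 were higher. In round spermatids 5 were higher and 9 lower than in spermatocytes, beside 42.7% and 36.4% of all genes. The signs of KDM5B in the first and KDM5A in the second turned with library totals alone. The LSD demethylases, which act on H3K4 by amine oxidation, are KDM1A and KDM1B. KDM1A had 142, 145 and 142 CPM in spermatogonia, 127, 142 and 146 CPM in spermatocytes and 61.0, 78.7 and 59.9 CPM in round spermatids, and KDM1B had 6.45, 6.77 and 6.71 CPM in spermatogonia, 2.55, 2.29 and 4.80 CPM in spermatocytes and 7.33, 5.15 and 7.30 CPM in round spermatids. KDM1A was lowest in round spermatids without overlap, whereas for KDM1B spermatocytes were lowest, and spermatocytes 4 was the highest of them. KDM1A was 2.08-fold lower in round spermatids than in spermatocytes (log2 fold change -1.06 ± 0.12 SE, edgeR adjusted p = 1.65e-05). KDM1B, needed for maternal imprints in mouse oocytes, was 2.06-fold lower in spermatocytes than in spermatogonia (log2 fold change -1.04 ± 0.27 SE, edgeR adjusted p = 0.00491) and 2.05-fold higher in round spermatids than in spermatocytes (log2 fold change 1.03 ± 0.27 SE, edgeR adjusted p = 0.00455).

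The KDM3 enzymes remove methyl groups from H3K9. KDM3A (chr3:58300109-58355000), which in mouse spermatids acts at the genes of transition proteins and protamines, had 136, 139 and 138 CPM in spermatogonia, 246, 297 and 274 CPM in spermatocytes and 108, 88.7 and 104 CPM in round spermatids. KDM3B (chr2:140346145-140418556) had 72.2, 76.0 and 71.6 CPM in spermatogonia, 152, 285 and 246 CPM in spermatocytes and 16.9, 13.8 and 23.6 CPM in round spermatids. Both peaked in spermatocytes and were lowest in round spermatids without overlap of stages, and spermatocytes 2 was the lowest of its stage for both. KDM3B was 12.6-fold lower in round spermatids than in spermatocytes (log2 fold change -3.65 ± 0.26 SE, edgeR adjusted p = 3.60e-07), the largest fall of any member in that comparison, and 4.05-fold lower than in spermatogonia (log2 fold change -2.02 ± 0.24 SE, edgeR adjusted p = 2.40e-05). KDM3A was 2.72-fold lower in round spermatids than in spermatocytes (log2 fold change -1.44 ± 0.11 SE, edgeR adjusted p = 7.15e-07) and 1.98-fold higher in spermatocytes than in spermatogonia (log2 fold change 0.98 ± 0.11 SE, edgeR adjusted p = 2.49e-05).

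The KDM5 enzymes demethylate H3K4. KDM5B (chr10:24739115-24831537) had 375, 378 and 377 CPM in spermatogonia, 438, 561 and 433 CPM in spermatocytes and 64.95, 86.3 and 67.7 CPM in round spermatids. Round spermatids stood far below the other libraries. KDM5B was 6.54-fold lower in round spermatids than in spermatocytes (log2 fold change -2.71 ± 0.15 SE, edgeR adjusted p = 5.96e-08) and 5.16-fold lower than in spermatogonia (log2 fold change -2.37 ± 0.15 SE, edgeR adjusted p = 2.04e-07). Its small rise in spermatocytes against spermatogonia (log2 fold change 0.34 ± 0.14 SE, edgeR adjusted p = 0.0482) turned to -0.086 with library totals alone and -0.19 with log2(TPM + 1). It also lost its call without any 1 of the 3 spermatogonia libraries, spermatocytes 3 or round spermatids 3, at 0.21 to 0.34. KDM5A averaged 43.9 ± 0.401 CPM in spermatogonia, 81.8 ± 10.97 in spermatocytes and 65.4 ± 8.48 in round spermatids, and was 1.86-fold higher in spermatocytes than in spermatogonia (log2 fold change 0.90 ± 0.13 SE, edgeR adjusted p = 0.000148). Its fall in round spermatids against spermatocytes (log2 fold change -0.32) turned to 0.13 with library totals alone and lost its call without any 1 of 6 libraries, the 3 of spermatogonia, spermatocytes 3 and 4 and round spermatids 2, at -0.33 to -0.22. KDM5D, which is Y-linked in mammals and has no position in the gene table used, averaged 0.935 ± 0.0869 CPM in spermatogonia, 0.316 ± 0.165 in spermatocytes and 2.38 ± 0.319 in round spermatids and was 7.42-fold higher in round spermatids than in spermatocytes (log2 fold change 2.89 ± 0.32 SE, edgeR adjusted p = 9.35e-06).

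The KDM6 enzymes demethylate H3K27. KDM6B (chr12:53087072-53108949) had 298, 313 and 312 CPM in spermatogonia, 1017, 1209 and 1468 CPM in spermatocytes and 786, 370.4 and 778 CPM in round spermatids. Spermatogonia were lowest and spermatocytes highest without overlap, and round spermatids 2 was low within its stage, as for KMT2E and KMT2A. KDM6B was 4.002-fold higher in spermatocytes than in spermatogonia (log2 fold change 2.001 ± 0.26 SE, edgeR adjusted p = 6.29e-05) and 1.91-fold lower in round spermatids than in spermatocytes (log2 fold change -0.93 ± 0.25 SE, edgeR adjusted p = 0.00609), the second call being lost with library totals alone at -0.51. KDM6A, on the X chromosome (chrX:39953764-40154197), had 9.88, 10.6 and 11.08 CPM in spermatogonia, 8.08, 7.86 and 17.6 CPM in spermatocytes and 28.3, 29.8 and 28.2 CPM in round spermatids. Round spermatids stood above all other libraries, and spermatocytes 4 stood above spermatogonia while spermatocytes 2 and 3 stood below. KDM6A was 2.57-fold higher in round spermatids than in spermatocytes (log2 fold change 1.36 ± 0.27 SE, edgeR adjusted p = 0.000835) and 2.74-fold higher than in spermatogonia (log2 fold change 1.45 ± 0.27 SE, edgeR adjusted p = 0.000564). Without spermatocytes 4 it was called lower in spermatocytes than in spermatogonia, at -0.40 in place of 0.089. That library had the highest endothelial marker sum of its stage too, 16.8 CPM against 5.29 and 4.58 CPM. Its myoid, Sertoli and leukocyte sums were also the highest of the stage. The part of other cells was not tested.

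KDM7A, a JmjC demethylase of H3K9 and H3K27, had 24.1, 24.9 and 24.9 CPM in spermatogonia, 73.8, 85.0 and 83.0 CPM in spermatocytes and 109, 83.8 and 122 CPM in round spermatids. It was lowest in spermatogonia without overlap, and round spermatids 2 lay among the spermatocytes. KDM7A was 3.27-fold higher in spermatocytes than in spermatogonia (log2 fold change 1.71 ± 0.14 SE, edgeR adjusted p = 3.39e-06) and 4.26-fold higher in round spermatids than in spermatogonia (log2 fold change 2.09 ± 0.14 SE, edgeR adjusted p = 3.75e-07). The further rise in round spermatids against spermatocytes (log2 fold change 0.38) lost its call without any 1 of spermatocytes 2 or round spermatids 1 or 3, at 0.26 to 0.35. Among other settings, this call was also lost with RLE in place of TMM factors (0.27), DESeq2 (0.27), no filter on low counts (0.17) and log2(TPM + 1) (0.26). KDM8, a JmjC protein first described as an H3K36 demethylase, had 9.997, 9.62 and 9.70 CPM in spermatogonia, 3.65, 2.79 and 2.41 CPM in spermatocytes and 2.40, 3.31 and 3.16 CPM in round spermatids. Spermatogonia stood above all other libraries. KDM8 was 3.31-fold lower in spermatocytes than in spermatogonia (log2 fold change -1.73 ± 0.19 SE, edgeR adjusted p = 1.82e-05) and 3.30-fold lower in round spermatids than in spermatogonia (log2 fold change -1.72 ± 0.19 SE, edgeR adjusted p = 1.01e-05).

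The KDM4 enzymes, which act on trimethylated H3K9 and H3K36, parted in spermatocytes. KDM4A averaged 18.9 ± 0.895 CPM in spermatogonia, 34.5 ± 3.76 in spermatocytes and 20.9 ± 3.03 in round spermatids. KDM4B averaged 16.5 ± 0.757 CPM in spermatogonia, 8.39 ± 0.426 in spermatocytes and 18.9 ± 3.37 in round spermatids, and KDM4C averaged 11.6 ± 0.504 CPM in spermatogonia, 11.09 ± 0.510 in spermatocytes and 4.0004 ± 1.03 in round spermatids. In spermatocytes against spermatogonia KDM4A was 1.82-fold higher (edgeR adjusted p = 0.000222), a call lost with log2(TPM + 1) at 0.30, and KDM4B was 1.97-fold lower (edgeR adjusted p = 0.000148). In round spermatids against spermatocytes KDM4B was 2.26-fold higher and KDM4C 2.77-fold lower (edgeR adjusted p = 2.50e-05 and 2.72e-05). KDM2A, a demethylase of H3K36 at CpG islands, averaged 200.2 ± 5.77 CPM in spermatogonia, 234 ± 27.2 in spermatocytes and 104 ± 8.80 in round spermatids and was 2.24-fold lower in round spermatids than in spermatocytes (log2 fold change -1.16 ± 0.12 SE, edgeR adjusted p = 4.30e-06).

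Some comparisons not described above gained a call when 1 library was left out. In spermatocytes against spermatogonia KDM2A was called higher without spermatocytes 2 (0.31 on the log2 scale) and without round spermatids 2 (0.22), and PRDM4 likewise (0.39 and 0.28). SETD3 was called higher there without round spermatids 2 (0.18), and PRDM16 lower without spermatocytes 3 (-0.32). In round spermatids against spermatogonia SETD5 was called higher without round spermatids 2 (0.58), KDM4B higher without round spermatids 1 (0.33), and SETDB2 lower without round spermatids 3 (-0.67). KMT5C was called higher there without any 1 of spermatocytes 2 or 4 (0.29) or round spermatids 2 (0.33). PRDM6 was called higher in round spermatids than in spermatocytes without spermatocytes 3 (1.02).

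Ratios of related members within a library do not depend on how libraries are scaled. The pairs were picked with the values known, so the ratios are given as a description without a test. SUV39H2 over SUV39H1, in TPM, was 3.94, 4.79 and 4.31 in spermatogonia, 15.1, 16.3 and 13.3 in spermatocytes and 7.18, 4.64 and 7.69 in round spermatids. Spermatocytes were highest for this pair without overlap. KDM4A over KDM4B was 0.934, 0.939 and 0.937 in spermatogonia, 3.63, 3.60 and 2.88 in spermatocytes and 1.002, 0.916 and 0.806 in round spermatids, again highest in spermatocytes.

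Other ratios had their extremes elsewhere. EZH2 over EZH1 was 8.197, 7.64 and 7.83 in spermatogonia, 11.99, 9.97 and 11.6 in spermatocytes and 16.6, 19.0 and 17.4 in round spermatids, lowest in spermatogonia and highest in round spermatids without overlap. KMT2A over KMT2B was 0.103, 0.0948 and 0.104 in spermatogonia, 0.201, 0.177 and 0.228 in spermatocytes and 1.41, 0.609 and 1.06 in round spermatids. In round spermatids 1 and 3 KMT2A thus exceeded KMT2B, and in the other 7 libraries KMT2B was the more abundant. KDM5A over KDM5B was 0.117, 0.118 and 0.117 in spermatogonia, 0.160, 0.162 and 0.199 in spermatocytes and 1.09, 0.648 and 1.05 in round spermatids, so KDM5B led KDM5A in all libraries but round spermatids 1 and 3. SETD2 over NSD2 was 0.259, 0.2796 and 0.268 in spermatogonia, 1.84, 2.14 and 2.32 in spermatocytes and 1.63, 0.809 and 1.74 in round spermatids. NSD2 was thus the more abundant of this pair in every spermatogonia library and SETD2 in every spermatocyte library. KDM6B over KDM6A was 10.6, 10.4 and 9.92 in spermatogonia, 44.3, 54.1 and 29.3 in spermatocytes and 9.76, 4.37 and 9.70 in round spermatids. KDM6B was the more abundant in each of the 9 libraries, most of all in spermatocytes.

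**Figure D5:**
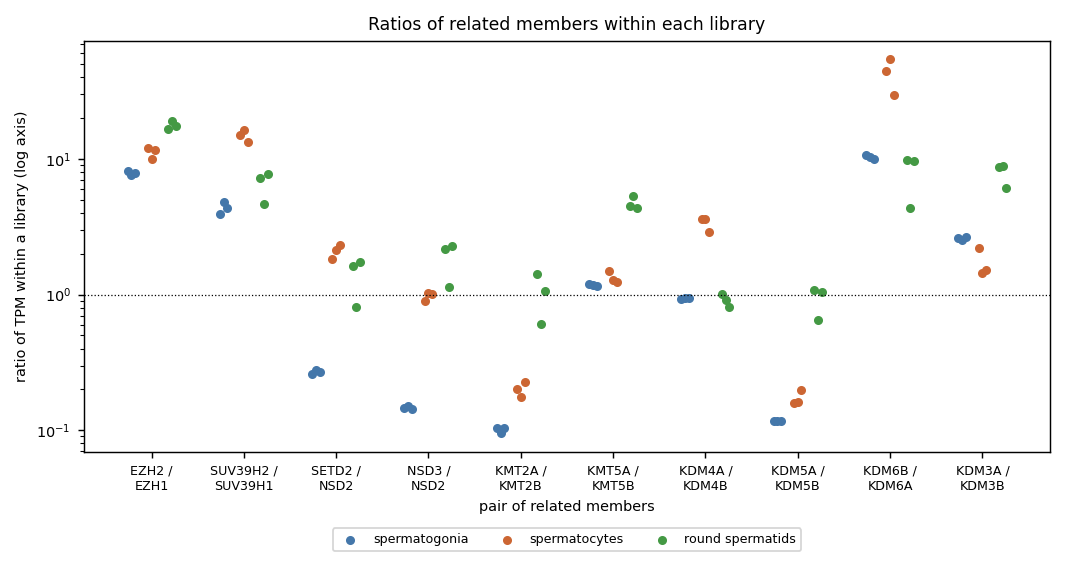
Ratio of TPM within each library (log axis) for 10 pairs of related members, with 1 point per library, colours for the 3 stages and a dotted line at a ratio of 1. SUV39H2 over SUV39H1 and KDM4A over KDM4B peak in spermatocytes, and KMT2A over KMT2B and KDM5A over KDM5B cross the line in round spermatids 1 and 3.

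Cofactors and readers of these enzymes, listed apart from the members, were counted by the same test. Of 60 listed, 52 were found, and 29 of these were higher and 11 lower in spermatocytes than in spermatogonia, with a median log2 fold change of 0.60 beside -0.32 for all genes. The share of all genes was 29.3% higher and 44.0% lower, and over the settings 20 to 37 cofactors were higher and 8 to 19 lower. In round spermatids 12 were higher and 34 lower than in spermatocytes, beside 42.7% and 36.4% of all genes, with a median of -1.09 beside 0.19 for all genes. Against spermatogonia 11 were higher and 22 lower, beside 39.5% and 39.7% of all genes, with a median of -0.10, and over the settings 6 to 17 were higher and 19 to 31 lower. All 5 listed partners and readers of PRDM9 were lower in round spermatids than in spermatocytes, at each of the 20 alternative settings too, and 4 of them were higher in spermatocytes than in spermatogonia. Over the settings 2 to 4 of the 5 were higher there and up to 1 was lower. ZCWPW2, from the family that reads the methyl marks set by PRDM9, had 35.9, 36.4 and 35.999 CPM in spermatogonia, 102, 119 and 71.9 CPM in spermatocytes and 7.58, 6.35 and 7.92 CPM in round spermatids. Its stages did not overlap, with spermatocytes highest. ZCWPW2 was 13.4-fold lower in round spermatids than in spermatocytes (log2 fold change -3.75 ± 0.19 SE, edgeR adjusted p = 3.71e-08) and 4.95-fold lower than in spermatogonia (log2 fold change -2.31 ± 0.18 SE, edgeR adjusted p = 9.62e-07).

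PSIP1, a reader of methylated H3K36, had 727, 734 and 744 CPM in spermatogonia, 8586, 8132 and 7002 CPM in spermatocytes and 1272, 393 and 1163 CPM in round spermatids. The spermatocyte libraries stood far above all others, and round spermatids 2 lay below spermatogonia while round spermatids 1 and 3 lay above. PSIP1 was 10.8-fold higher in spermatocytes than in spermatogonia (log2 fold change 3.43 ± 0.37 SE, edgeR adjusted p = 1.70e-05) and 8.38-fold lower in round spermatids than in spermatocytes (log2 fold change -3.07 ± 0.36 SE, edgeR adjusted p = 1.76e-05). TRIM28, the corepressor that brings SETDB1 to its targets, had 2584, 2567 and 2567 CPM in spermatogonia, 782, 763 and 692 CPM in spermatocytes and 403, 645 and 384 CPM in round spermatids. Spermatogonia were highest and round spermatids lowest without overlap. TRIM28 was 3.45-fold lower in spermatocytes than in spermatogonia (log2 fold change -1.79 ± 0.19 SE, edgeR adjusted p = 1.41e-05) and 5.39-fold lower in round spermatids than in spermatogonia (log2 fold change -2.43 ± 0.19 SE, edgeR adjusted p = 9.58e-07).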

How the data were processed

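RNA was sequenced from 9 libraries, 3 per stage. The authors deposited 2 tables, 1 with an estimated count and 1 with a TPM value (transcripts per 1000000) per gene and library. Per the submitters' processing notes, bcl2fastq and the genome build Sscrofa11.1 were used. The sources used here name no aligner, quantifier, annotation or strand setting of the counting (not given in the sources used here), so values of overlapping or antisense genes and of near-identical copies are uncertain. Columns were matched to libraries by the cell name and number in their headings, which call spermatogonia c-kit and spermatocytes Pachy. The other 6 columns of per-sample values, 2 headed RS and 4 headed SSEA4, carry cell names or numbers that match no library in the labels used here, and were not used.

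The estimated counts that the authors deposited were rounded to whole numbers and fitted over all 9 libraries with edgeR 4.0.16 in R 4.3.3, with TMM factors (0.774 to 1.26), filterByExpr (16802 of 22342 identifiers kept), the quasi-likelihood test and Benjamini-Hochberg adjustment over all tested genes at 0.05. Library totals of 47963279 to 64639201 and a common dispersion of 0.0316 set the precision. Deposited TPM values fall 7.67 to 11.8% short of 1000000 in the round spermatid libraries and 3.19 to 3.97% short in the other libraries. They were not rescaled for this, which lowers TPM in round spermatids beside the other stages. TPM was used for levels between genes, for ratios and, as log2(TPM + 1), for limma 3.58.1 as an alternative. Symbols came with 14749 identifiers, and positions from RefSeq for Sscrofa11.1 were found for 63 of the 64 members. On simulated counts these steps recovered 84% of 2-fold and 99% of 4-fold changes for spermatocytes against spermatogonia (16585 genes), 80% and 98% for round spermatids against spermatocytes (16563 genes) and 76% and 99% for round spermatids against spermatogonia (16585 genes), with 9 false calls each. The simulation gave each gene a single mean over the stages and the common dispersion, and changed 200 genes, equally up and down. In the libraries most genes differed between stages, so the simulation does not test the scaling between stages or the unequal spread of the stages.

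The members, their roles, the cofactor and marker lists and the tests were chosen with earlier results of these data known. Values in every library are given for a fixed set of members and for the up to 6 largest rises and 6 largest falls per comparison among called members whose library ranges did not overlap and whose higher stage averaged at least 5 CPM. Cofactors are named by the 3 largest rises and 3 largest falls per comparison. Of the members 1, which stays in the counts, is not reported here by itself. Other members were given by means, or in every library where they stand beside a named relative. Alternatives were RLE factors, library totals alone, other filters, DESeq2 1.42.0, TPM, fits of 2 stages, each library left out, summed spermatogonia libraries and a block for the replicate number. Scaling without the 50 most abundant genes and a call rule of at least 2-fold were chosen after seeing the data.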

Additional observations from a re-analysis of the deposited data

How the results depend on the processing

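Counts of members called moved beyond 1.5 times at few settings. Members higher in spermatocytes than in spermatogonia numbered 29, but 15 with log2(TPM + 1), 16 with log2(TPM + 0.1) and 15 where a change of at least 2-fold was also required, and the 18 lower ones became 11 under that last rule. Members higher in round spermatids than in spermatogonia numbered 17, but 11 and 10 with the same pseudocounts of TPM and 10 with the spermatogonia libraries summed. With 1 library left out, 26 to 32 members were higher and 15 to 21 lower in spermatocytes than in spermatogonia, 15 to 18 higher and 34 to 36 lower in round spermatids than in spermatocytes, and 17 to 20 higher and 32 to 34 lower in round spermatids than in spermatogonia. Of 3716 single log2 fold changes of members at other settings, 3443 kept their side of the threshold, 74 gained a call, 176 lost one and 23 with a call turned their sign. Among the 3443 were 118 that changed sign and were called at neither setting. With library totals alone the log2 fold change in spermatocytes against spermatogonia turned to -0.42 for DOT1L, -0.086 for KDM5B, -0.046 for NSD1 and -0.016 for SETDB1, and that in round spermatids against spermatocytes to 0.44 for EHMT2, 0.13 for KDM5A and 0.13 for NSD3. With log2(TPM + 1) and log2(TPM + 0.1) the first comparison turned to -0.52 and -0.53 for DOT1L, -0.19 and -0.19 for KDM5B, -0.16 and -0.16 for NSD1 and -0.12 and -0.12 for SETDB1. Round spermatids against spermatogonia turned with them to -0.043 and -0.047 for KDM5A, -0.54 and -0.55 for SETD2 and -0.47 and -0.49 for SUV39H2. With 1 library left out KDM6A ranged from -0.40 (without spermatocytes 4) to 0.29 in spermatocytes against spermatogonia, and it turned to -0.43 with the replicate block. The cause of these changes was not tested. The correlation of deviations between libraries of the same replicate number ran from -0.048 to 0.028, and between libraries of different numbers from -0.090 to 0.093. With 3 libraries per stage and spermatogonia libraries that differ so little, these values cannot decide whether the numbers pair the libraries. With the replicate block 25 members were higher and 19 lower in spermatocytes than in spermatogonia, 16 and 34 in round spermatids than in spermatocytes, and 17 and 33 in round spermatids than in spermatogonia. The search of promoter motifs was not run. The spermatogonia libraries lay very close together, and with their counts summed 27 calls of members were lost. SMYD1 and PRDM13 were too low to test.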

Other observations

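Of 7 further proteins of Polycomb repressive complex 2, among them RBBP7, often counted with the core, 3 were higher and 4 lower in spermatocytes than in spermatogonia, beside 29.3% and 44.0% of all genes. In round spermatids 4 were higher and 2 lower than in spermatocytes, beside 42.7% and 36.4% of all genes. PHF19, which ties the complex to methylated H3K36, had 1.12, 1.06 and 1.09 CPM in spermatogonia, 0.216, 0.131 and 0.287 CPM in spermatocytes and 5.92, 4.53 and 6.84 CPM in round spermatids. Its stages did not overlap, with round spermatids highest and spermatocytes lowest. PHF19 was 26.7-fold higher in round spermatids than in spermatocytes (log2 fold change 4.74 ± 0.28 SE, edgeR adjusted p = 8.99e-08), and the log2 fold change ranged over the settings between 1.37 and 5.17. JARID2, which helps to recruit the complex, averaged 55.1 ± 2.53 CPM in spermatogonia, 19.3 ± 5.95 in spermatocytes and 57.9 ± 1.79 in round spermatids, and EPOP averaged 8.15 ± 0.612 CPM in spermatogonia, 1.88 ± 0.322 in spermatocytes and 8.01 ± 1.64 in round spermatids. Both were lower in spermatocytes than in spermatogonia (edgeR adjusted p = 4.07e-05 for JARID2 and 7.15e-06 for EPOP) and higher in round spermatids than in spermatocytes (edgeR adjusted p = 1.65e-05 and 3.11e-06). Myoid, Sertoli, endothelial and leukocyte markers were highest in round spermatids as well, and their part in these levels was not tested.

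Of 8 partners of the LSD demethylases 6 were higher and 1 lower in spermatocytes than in spermatogonia (29.3% and 44.0% of all genes), with 4 to 7 higher over the settings. In round spermatids 1 was higher and 7 were lower than in spermatocytes (42.7% and 36.4% of all genes). The 11 H3K9 cofactors found include the HP1 proteins CBX1 and CBX5 and subunits of the HUSH silencing complex, while the listed CBX3 was not found. Of the 11, 7 were higher and 1, TRIM28, was lower in spermatocytes than in spermatogonia. In round spermatids 9 were lower than in spermatocytes, beside the same shares of all genes, and CBX1 was called in neither comparison. Over the settings 7 to 10 were higher and 1 to 4 lower in the first comparison, and 8 to 10 lower in the second. JMJD1C, a JmjC protein akin to KDM3A, averaged 64.4 ± 2.46 CPM in spermatogonia, 380.4 ± 90.1 in spermatocytes and 365 ± 69.9 in round spermatids. It was 5.91-fold higher in spermatocytes than in spermatogonia (log2 fold change 2.56 ± 0.20 SE, edgeR adjusted p = 2.48e-06). MECOM, a PR domain protein also named PRDM3, averaged 0.470 ± 0.0832 CPM in spermatogonia, 0.677 ± 0.334 in spermatocytes and 8.04 ± 1.10 in round spermatids and was 17.0-fold higher in round spermatids than in spermatogonia (log2 fold change 4.09 ± 0.31 SE, edgeR adjusted p = 7.40e-07). PHF2, a JmjC demethylase of H3K9, averaged 6.27 ± 0.0710 CPM in spermatogonia, 3.45 ± 0.346 in spermatocytes and 27.7 ± 1.55 in round spermatids and was 8.01-fold higher in round spermatids than in spermatocytes (log2 fold change 3.002 ± 0.13 SE, edgeR adjusted p = 1.20e-08). MLLT10, a partner of DOT1L, averaged 265 ± 6.11 CPM in spermatogonia, 1191 ± 122 in spermatocytes and 145 ± 36.3 in round spermatids and was 8.21-fold lower in round spermatids than in spermatocytes (log2 fold change -3.04 ± 0.19 SE, edgeR adjusted p = 1.22e-07). ASH2L, a core subunit of the H3K4 methyltransferase complexes, averaged 242 ± 2.51 CPM in spermatogonia, 173 ± 12.3 in spermatocytes and 44.9 ± 6.45 in round spermatids and was 5.39-fold lower in round spermatids than in spermatogonia (log2 fold change -2.43 ± 0.12 SE, edgeR adjusted p = 6.18e-08).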
